A study of Mus musculus with 43 samples.

Results

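The levels of 10 genes of the hypoxia-inducible factor (HIF) pathway were examined in lung mononuclear cells of newborn mice kept in high oxygen. The genes are Egln1, Egln3, Hif1a, Ankrd37, Narf, Slc2a1, Pdk1, Bnip3, Kdm3a and Mxi1, found as 10 rows of 37991 in the deposited count table by matching Ensembl mouse identifiers to these symbols. They were chosen with their hyperoxia changes in these libraries known, so every hyperoxia value of theirs is a description without a test. C57BL/6 pups were randomly placed in hyperoxia (fraction of inspired oxygen 0.9) or in normoxia, and their lungs were taken after 1.5 days. Flow cytometry then gave 4 populations. Dendritic cells (DC) were sorted by their MHC class II and CD11c, and alveolar macrophages (AM) by Siglec-F together with CD11c. Monocytes/macrophages were taken as a Ly6Chi population with low CD11c and a Ly6Clo population with high CD11c. All pups were wild type as far as the labels say. There were 43 libraries in 8 groups, with 5 hyperoxic libraries in each population against 6 normoxic libraries (5 in Ly6Clo). The libraries carry the numbers of 3 litters, 93, 100 and 108. Litters were mixed before assignment, and the labels tie no library to a pup, so libraries of different populations may share pups and p-values measure the spread between libraries.

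HIF is a pair of proteins, an oxygen-regulated alpha subunit such as HIF-1alpha and a constant partner, that switches on genes when oxygen is short. In well oxygenated cells, prolyl hydroxylases of the EGLN family mark the alpha subunit, and the VHL ubiquitin ligase then sends it to the proteasome. Its targets raise glucose uptake and glycolysis, slow the entry of pyruvate into mitochondria, remove mitochondria and feed back on the hydroxylases, and macrophages are known to rely on this pathway when they act in poorly oxygenated tissue. HIF is controlled mainly as a protein, which was not measured here.

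Levels below are counts scaled to 1000000 counts of a library by the trimmed mean of M values (CPM). Library totals ranged from 551960 to 2403861 counts. In each population the hyperoxic library of litter 100 (replicate 3) had the lowest total of its group, at 1309747 counts in DC, 551960 in AM, 1026528 in Ly6Chi and 647844 in Ly6Clo. It was the highest hyperoxic library of its population for 1106 of 12529 genes (8.83%) in all 4 populations, and the lowest for 997 genes (7.96%). Some results that rest on it are given with and without litter 100, but not all. For example, it was the lowest hyperoxic library for Ankrd37 and Narf in Ly6Chi and for Bnip3 in DC, Ly6Chi and Ly6Clo. For Egln1 it was the highest in Ly6Chi and Ly6Clo. The fold changes of these genes in those populations are given only with litter 100 included. By group mean, each sort marker below was highest in the population it marks. H2-Ab1, an MHC class II chain, averaged 1185 ± 225 CPM (SD) in hyperoxic DC and 1188 ± 257 CPM in normoxic DC, against group means of 91.8 to 291.5 CPM elsewhere. Siglecf averaged 86.4 ± 14.7 CPM in hyperoxic AM and 130.6 ± 33.0 CPM in normoxic AM, against 3.01 to 19.8 CPM elsewhere. Ly6c2 averaged 533.6 ± 227.1 CPM in hyperoxic Ly6Chi and 421.3 ± 71.9 CPM in normoxic Ly6Chi, against 8.58 ± 3.69 CPM in hyperoxic Ly6Clo and 19.1 ± 6.15 CPM in normoxic Ly6Clo. In DC it averaged 238.6 ± 183 CPM in hyperoxia and 137.6 ± 27.8 CPM in normoxia. Its AM means were 42.2 CPM in hyperoxia and 22.5 CPM in normoxia. Ly6c2 therefore set Ly6Chi apart from DC less clearly than from Ly6Clo.

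Averaged over the populations, Ankrd37 and Narf were lower in hyperoxia, Slc2a1 was higher, and the other 7 differed less or had few counts. The Narf estimate in AM was near 0 with a wide error (log2 fold change 0.01 ± 0.41). Its hyperoxia effect was not shown to differ between populations. The Slc2a1 mean was 0.30 without litter 100, against 0.57 ± 0.14 with it. The promoters of the 3 genes with the largest mean differences are printed here and were searched for ACGTG or GCGTG, the short core of the HIF response element through which HIF acts on its targets. Each window runs from 250 bases before to 50 after the RefSeq start, 5′ to 3′ on the gene's strand, from build GRCm38.p6. Capitals mark ACGTG or GCGTG on that strand, and CACGT or CACGC where the match is on the other strand.
Ankrd37: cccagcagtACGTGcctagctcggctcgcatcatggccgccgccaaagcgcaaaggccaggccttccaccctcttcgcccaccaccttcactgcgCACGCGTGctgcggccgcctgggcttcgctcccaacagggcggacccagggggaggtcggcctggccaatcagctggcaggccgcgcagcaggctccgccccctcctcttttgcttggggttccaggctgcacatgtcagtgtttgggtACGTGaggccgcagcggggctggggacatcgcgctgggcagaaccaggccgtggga
Narf: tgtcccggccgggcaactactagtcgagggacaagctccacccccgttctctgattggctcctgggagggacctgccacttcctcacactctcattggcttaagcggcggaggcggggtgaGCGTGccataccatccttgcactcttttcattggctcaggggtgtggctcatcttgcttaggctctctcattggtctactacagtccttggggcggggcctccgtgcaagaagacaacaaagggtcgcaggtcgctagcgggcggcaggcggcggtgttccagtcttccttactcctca
Slc2a1: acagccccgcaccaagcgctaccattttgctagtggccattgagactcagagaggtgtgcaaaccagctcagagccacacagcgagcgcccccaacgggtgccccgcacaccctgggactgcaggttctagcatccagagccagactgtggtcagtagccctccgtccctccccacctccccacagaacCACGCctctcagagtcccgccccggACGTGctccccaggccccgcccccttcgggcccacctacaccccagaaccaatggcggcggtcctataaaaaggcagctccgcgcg
The Ankrd37 window is chr8:45999801-46000100 on the minus strand, the Narf window chr11:121236986-121237285 on the plus strand, and the Slc2a1 window chr4:119108495-119108794 on the plus strand. Counted from the start, where −1 is the base before it, Ankrd37 has ACGTG at positions −241 and −6, GCGTG at −152 and CACGC at −155, and the pair at −155 and −152 overlap. Narf has a single GCGTG at −129. Slc2a1 has ACGTG at −36 and CACGC at −61. Of the 15 windows that RefSeq gave for the 10 members 11 held a match (73.3%), beside 14380 of all 32851 windows of this length (43.8%). By gene, 10 of 10 members and 12628 of 27025 genes had a match in at least 1 window. These letters are common, so a match is a description of the sequence and not a binding site. Matches at a CACGTG, as in Bnip3 and Hif1a, count on both strands. The counts were made on the older build NCBIM37, and no position was carried between the builds.

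**Figure D1:**
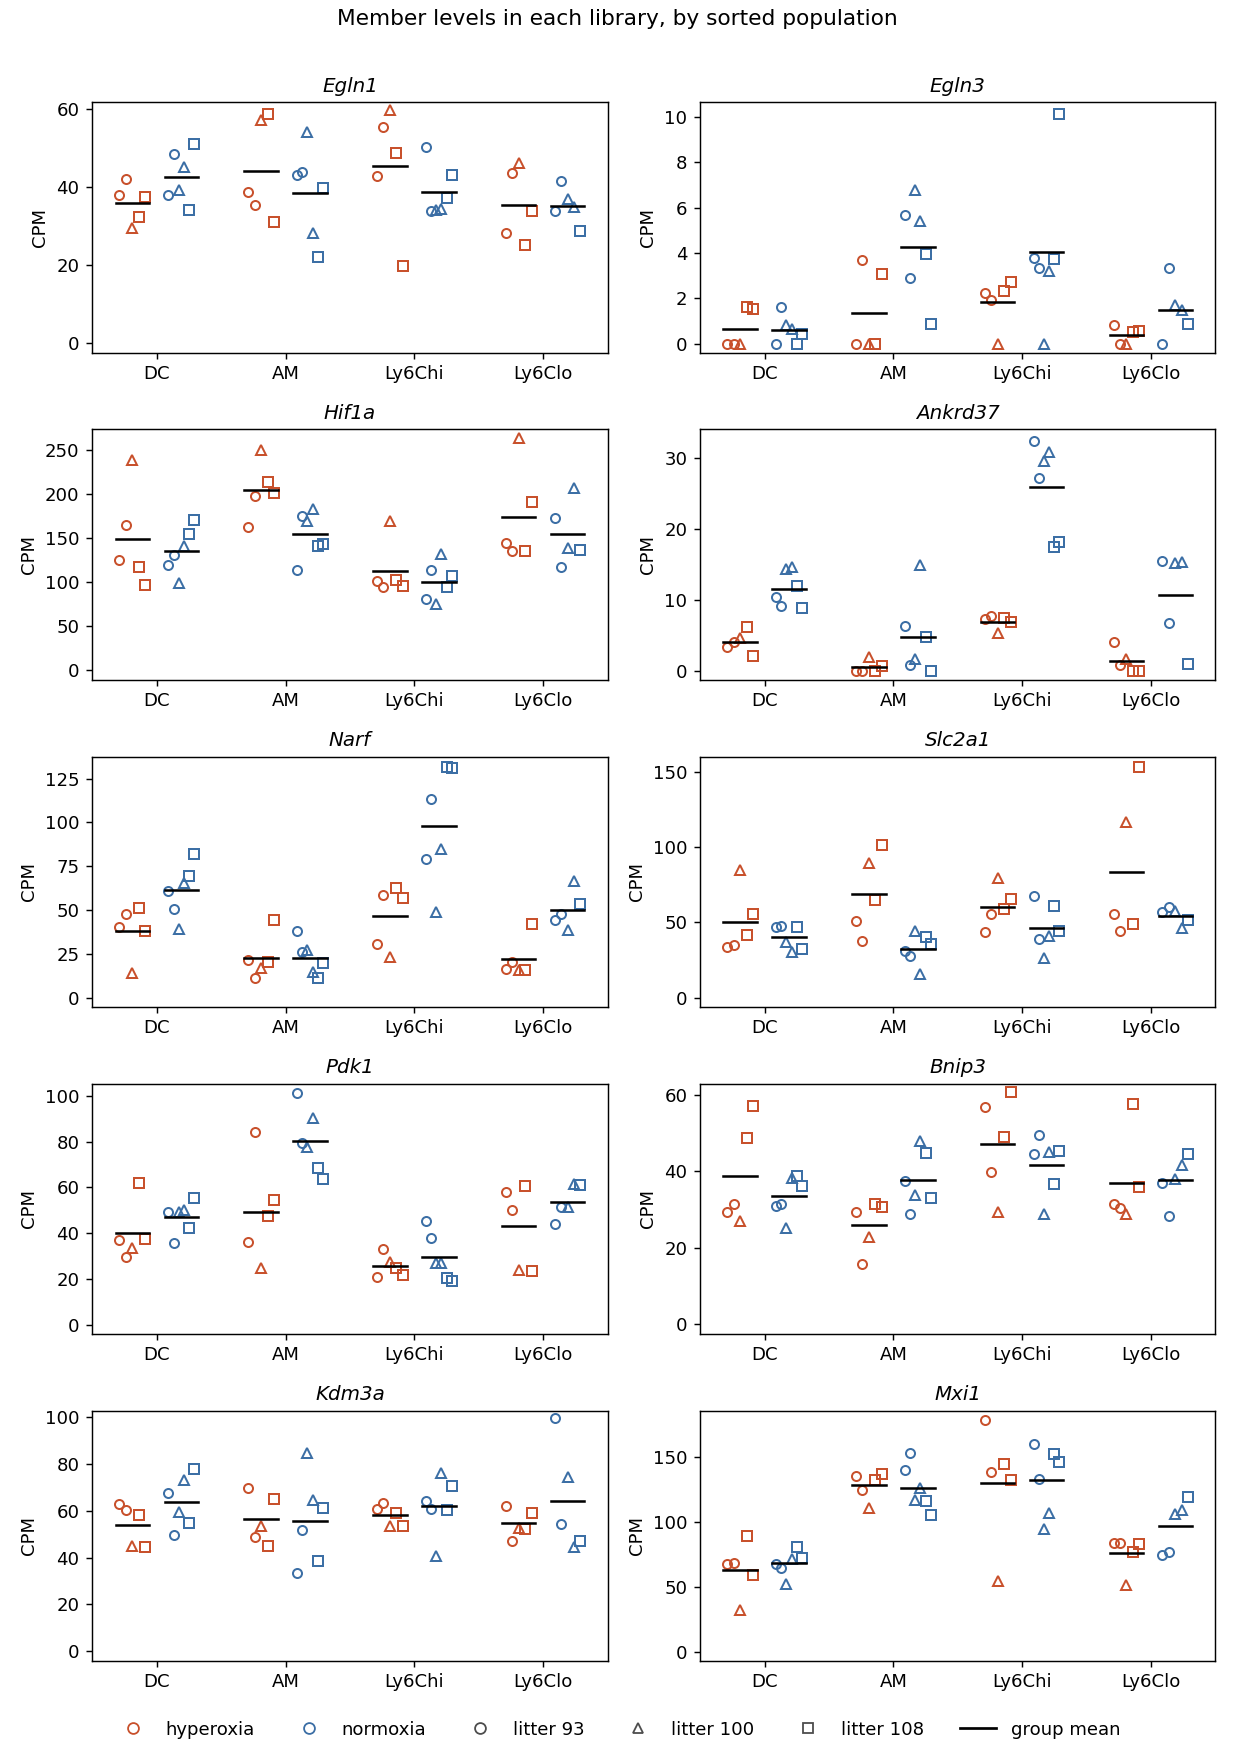
Level of each member in every library (CPM, linear axes from 0), with hyperoxia left of normoxia in each population, marker shape for the litter and a bar for the group mean. The hyperoxic and normoxic libraries separate fully for Ankrd37 in DC and Ly6Chi, and the hyperoxic litter 100 library is the highest of its group for Hif1a and the lowest for Mxi1 in all 4 populations.

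Ankrd37 (ENSMUSG00000050914) encodes a small ankyrin repeat protein and is known as a direct HIF target. It lies on chromosome 8 and was the member with the largest difference. In Ly6Chi it stood at 7.32, 7.73, 5.24, 7.45 and 6.80 CPM in the 5 hyperoxic libraries, against 17.4 (lowest), 28.4 (median) and 32.4 (highest) CPM in the 6 normoxic ones. Every hyperoxic Ly6Chi library was below every normoxic one, and the log2 fold change was −1.80 ± 0.28 (SE). In DC the hyperoxic libraries had 3.27, 4.02, 4.65, 6.13 and 2.06 CPM, against 8.84, 11.1 and 14.6 CPM for the lowest, median and highest normoxic library. The DC groups did not overlap either, and the log2 fold change was −1.39 ± 0.34. Such separation with hyperoxia lower was found for 16 of 10844 genes in Ly6Chi (0.148%) and 35 of 11274 genes in DC (0.31%), and since the genes were picked on this contrast it is no test of Ankrd37.

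Ankrd37 failed the filter on low counts in AM and Ly6Clo, where the hyperoxic libraries held 0 to 1 counts in AM and 0 to 5 in Ly6Clo. Normoxic AM libraries held 0 to 22 counts and normoxic Ly6Clo libraries 1 to 25. Hyperoxic AM had 0 counts in 3 of 5 libraries and 1.91 and 0.61 CPM in the others, against 0, 3.21 and 14.8 CPM for the lowest, median and highest normoxic AM library. A count of 0 allows up to 3 counts, which is 2.63 to 4.02 CPM in these 3 hyperoxic libraries, so single AM libraries cannot be told apart from the lower normoxic ones. Summed over libraries, AM had 2 counts in hyperoxia and 41 in normoxia, a ratio of 0.0733 per total count (95% interval 0.00859 to 0.282, counting error only). Of the 41 normoxic counts 22 came from AM normoxia replicate 4, and the ratio was 0.128 without it and 0.0413 without AM hyperoxia replicate 3. In Ly6Clo the hyperoxic libraries had 4.03, 0.82, 1.60, 0 and 0 CPM, against 15.4, 6.65, 15.2, 15.3 and 0.87 CPM in the normoxic ones. The Ly6Clo groups overlap through 1 normoxic library, replicate 5 of litter 108. The sums were 7 counts in hyperoxia and 77 in normoxia, a ratio of 0.0925 (0.0360 to 0.200). Of these 7 counts 5 came from Ly6Clo hyperoxia replicate 1, without which the ratio was 0.0322. The same ratio was 0.267 (0.199 to 0.352) in Ly6Chi and 0.364 (0.245 to 0.530) in DC. In bulk RNA, fewer cells that express a gene and less of its RNA per cell cannot be told apart.

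In the GENCODE M21 annotation the exons of Ankrd37 share 406 of 1539 bases with genes on the other strand, and the kit does not mark strand. Lrp2bp, which takes 349 of these bases, reached at most 6 counts in any library. Ufsp2, which takes 57, had log2 fold changes between −0.10 and 0.06 in the 4 populations and was not called in any.

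Narf (ENSMUSG00000000056), on chromosome 11, encodes a nuclear protein that binds prelamin A. In Ly6Chi the hyperoxic libraries had 30.4, 58.6, 23.1, 62.4 and 57.1 CPM, against 48.6, 99.3 and 131.7 CPM for the lowest, median and highest normoxic library (log2 fold change −1.20 ± 0.22). In Ly6Clo the hyperoxic libraries had 16.1, 20.6, 16.0, 15.6 and 42.0 CPM, against 44.4, 47.7, 38.7, 66.5 and 53.2 CPM in normoxia (−1.25 ± 0.32). Both pairs of groups overlap, by 3 hyperoxic libraries in Ly6Chi and by 1 in Ly6Clo. In DC the hyperoxic values were 40.3, 47.6, 13.96, 51.1 and 38.1 CPM, against 39.4, 63.2 and 82.0 CPM for the lowest, median and highest normoxic library (−0.79 ± 0.22). Of the hyperoxic DC libraries 2 of 5 lay below all normoxic ones, and without litter 100, whose DC library was the lowest, the value was −0.56. In AM the hyperoxic libraries had 21.4, 11.01, 17.2, 20.2 and 44.1 CPM, against 11.01, 22.7 and 37.9 CPM for the lowest, median and highest normoxic library (0.01 ± 0.41). The edgeR test of a hyperoxia effect that differs between populations called 0 of 9 members and 0% of 12529 genes. At an unadjusted p under 0.05 it held 1 member, Narf, and 4.92% of all genes, and DESeq2 and limma voom also called 0 members.

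Slc2a1 (ENSMUSG00000028645), on chromosome 4, encodes GLUT1, the main carrier of glucose into many cells, and was the member most clearly higher in hyperoxia. In AM the hyperoxic libraries had 50.9, 37.9, 89.6, 64.9 and 101.6 CPM, against 15.5, 33.4 and 44.0 CPM for the lowest, median and highest normoxic library. Of the 5 hyperoxic AM libraries 4 were above all normoxic ones, and the log2 fold change was 1.07 ± 0.27. In Ly6Clo the hyperoxic libraries had 55.7, 44.4, 116.7, 48.7 and 153.5 CPM, against 56.7, 60.4, 57.3, 46.0 and 51.4 CPM in normoxia (0.54 ± 0.34). Here 2 hyperoxic libraries stood far above the rest, and the other 3 lay within or below the normoxic values. In DC and Ly6Chi the highest hyperoxic library was that of litter 100, at 84.5 CPM in DC and 79.7 CPM in Ly6Chi. The other hyperoxic libraries had 33.8 to 55.6 CPM in DC and 43.3 to 65.7 CPM in Ly6Chi, against 30.5 to 47.9 CPM in normoxic DC and 26.3 to 67.2 CPM in normoxic Ly6Chi. Without litter 100 the log2 fold change was 0.88 in AM, against −0.08 in DC, 0.07 in Ly6Chi and 0.25 in Ly6Clo, where all libraries gave 0.29 ± 0.24, 0.38 ± 0.25 and 0.54 ± 0.34 in these last 3.

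**Figure D2:**
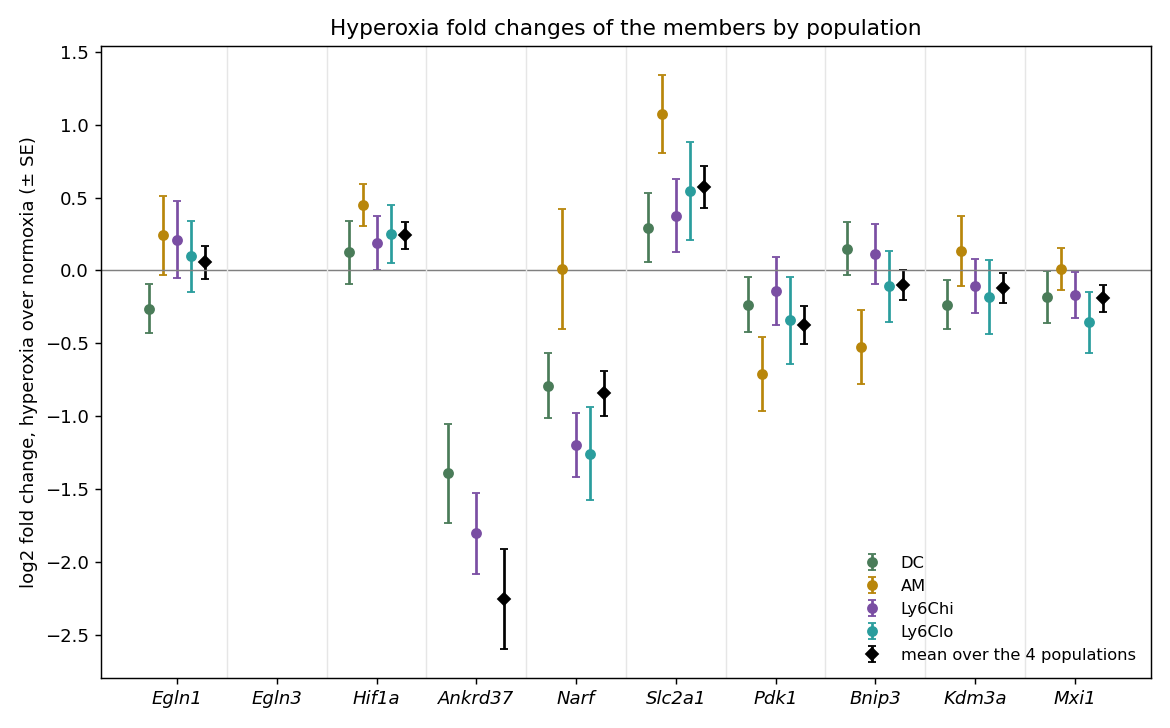
Log2 fold change of hyperoxia over normoxia (± SE) for each member in each population and as the mean over the 4 populations, fitted with litter as a term. Ankrd37 has no AM or Ly6Clo point and Egln3 no point because they failed the filter on low counts, and for the mean over the populations Ankrd37, Narf and Slc2a1 lie farthest from 0. In AM the points of Slc2a1, Pdk1, Bnip3 and Hif1a lie farther from 0 than that of Narf.

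Among the regulators, Hif1a encodes the alpha subunit itself. In AM the hyperoxic libraries had 162.2, 198.3, 249.7, 214.0 and 200.7 CPM, against 113.8, 156.4 and 182.6 CPM for the lowest, median and highest normoxic library. Of the hyperoxic AM libraries 4 of 5 lay above all normoxic ones, and the log2 fold change was 0.45 ± 0.14, or 0.43 without litter 100. Elsewhere the log2 fold change was 0.13 ± 0.22 in DC, 0.19 ± 0.19 in Ly6Chi and 0.25 ± 0.20 in Ly6Clo. The litter 100 library was the highest hyperoxic one in all 4 populations, at 238.9 CPM in DC, 249.7 in AM, 169.8 in Ly6Chi and 263.7 in Ly6Clo. Without litter 100 the DC value turned to −0.20, that in Ly6Chi came within rounding of 0, and that in Ly6Clo was 0.08.

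Egln1 encodes PHD2, the hydroxylase that sets HIF-1alpha levels in most cells, and is itself a HIF target. Its hyperoxic libraries had 29.5 to 42.2 CPM in DC, 31.2 to 58.8 in AM, 19.9 to 59.8 in Ly6Chi and 25.1 to 46.4 in Ly6Clo. The normoxic ranges were 34.1 to 51.0 CPM in DC, 22.0 to 54.2 in AM, 33.9 to 50.4 in Ly6Chi and 28.8 to 41.6 in Ly6Clo. All 4 pairs overlap, and the log2 fold changes were −0.26 ± 0.17 in DC, 0.24 ± 0.27 in AM, 0.21 ± 0.26 in Ly6Chi and 0.10 ± 0.25 in Ly6Clo.

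Egln3 encodes PHD3, a hydroxylase that is strongly induced by HIF in many cell types. It had at most 23 counts in any library and failed the filter in every fit, so it has no fold change. Summed counts were 8 in hyperoxic AM and 32 in normoxic AM, a ratio of 0.376 per total count (95% interval 0.150 to 0.832, counting error only). With any single AM library left out, the ratio ran from 0.211 to 0.483. In Ly6Chi the sums were 18 in hyperoxia and 51 in normoxia (0.473, 0.260 to 0.823). Of these normoxic counts 23 came from Ly6Chi normoxia replicate 6, without which the ratio was 0.695. DC had 7 counts in hyperoxia and 6 in normoxia, and Ly6Clo had 3 in hyperoxia and 11 in normoxia, with intervals that include 1. These intervals leave out the spread between libraries, and 9 of 20 hyperoxic and 4 of 23 normoxic libraries had no count.

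Pdk1 encodes the kinase that holds pyruvate dehydrogenase in check and so keeps pyruvate out of mitochondria. In AM its hyperoxic libraries had 36.2, 84.4, 24.8, 47.4 and 54.5 CPM, against 63.7, 78.6 and 101.4 CPM for the lowest, median and highest normoxic library (log2 fold change −0.71 ± 0.26). Of the hyperoxic AM libraries 4 of 5 lay below all normoxic ones, and without litter 100 the value was −0.48. The other populations overlap more, at −0.23 ± 0.19 in DC, −0.14 ± 0.23 in Ly6Chi and −0.34 ± 0.30 in Ly6Clo. Pdk1 and Slc2a1, which are usually listed together as HIF targets of glucose metabolism, had opposite signs in all 4 populations with every library in. Without litter 100 both were negative in DC, at −0.15 for Pdk1 and −0.08 for Slc2a1.

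Bnip3, a mitochondrial protein that starts the removal of mitochondria, averaged 26.1 ± 6.63 CPM in hyperoxic AM and 37.6 ± 7.32 CPM in normoxic AM (log2 fold change −0.52 ± 0.26). In the other 3 populations its log2 fold change was between −0.11 and 0.15. Kdm3a, a demethylase of histone H3, had log2 fold changes between −0.23 and 0.13, and its hyperoxic means of 54.0 to 58.0 CPM and normoxic means of 55.7 to 63.9 CPM barely set the populations apart. Mxi1 encodes a repressor that competes with MYC for their shared partner MAX. It averaged 63.1 ± 20.6 CPM in hyperoxic and 67.9 ± 9.53 CPM in normoxic DC, and 128.0 ± 10.8 CPM in hyperoxic and 126.2 ± 17.4 CPM in normoxic AM. In Ly6Chi it averaged 129.7 ± 45.7 CPM in hyperoxia and 132.1 ± 26.1 CPM in normoxia, and in Ly6Clo 75.8 ± 14.1 CPM in hyperoxia and 97.1 ± 20.3 CPM in normoxia. The litter 100 library was the lowest hyperoxic one in all 4, at 31.8 CPM in DC, 110.6 in AM, 54.5 in Ly6Chi and 51.2 in Ly6Clo. Without litter 100 the mean log2 fold change over the populations was −0.02, against −0.19 ± 0.09 with it.

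Within a litter and population, hyperoxic libraries can be set against normoxic ones of the same litter number, which gives 12 differences for each gene. Ankrd37 was lower in hyperoxia in 12 of 12, with a median difference of −1.43 log2 CPM and a range of −2.83 to −1.05. All 12 were negative for 25 of 12529 genes (0.2%). The 6 values from AM and Ly6Clo rest on few counts, and in Ly6Clo of litter 108 they were 0 and 0 counts in hyperoxia against 1 count in normoxia. In AM of litter 108, the end of the range at −1.05, they were 0 and 1 counts in hyperoxia against 6 and 0 in normoxia. Narf was lower in 11 of 12 (median −1.08, range −1.82 to 0.99), as were 191 genes (1.52%) in at least 11. Its single positive value came from AM of litter 108. Egln3 was also lower in 11 of 12 with few counts behind each value. Slc2a1 and Hif1a were each higher in 9 of 12 (medians 0.66 and 0.29), as were 1419 genes (11.3%) in at least 9. For Slc2a1 the 3 negative values were those of litter 93 in DC, Ly6Chi and Ly6Clo. Its litter 100 differences were the largest in every population, at 1.32 in DC, 1.75 in AM, 1.26 in Ly6Chi and 1.17 in Ly6Clo. The remaining counts of lower values were 9 for Pdk1, 8 each for Bnip3, Kdm3a and Mxi1, and 6 for Egln1. Each litter 100 difference rests on 1 hyperoxic library.

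**Figure D3:**
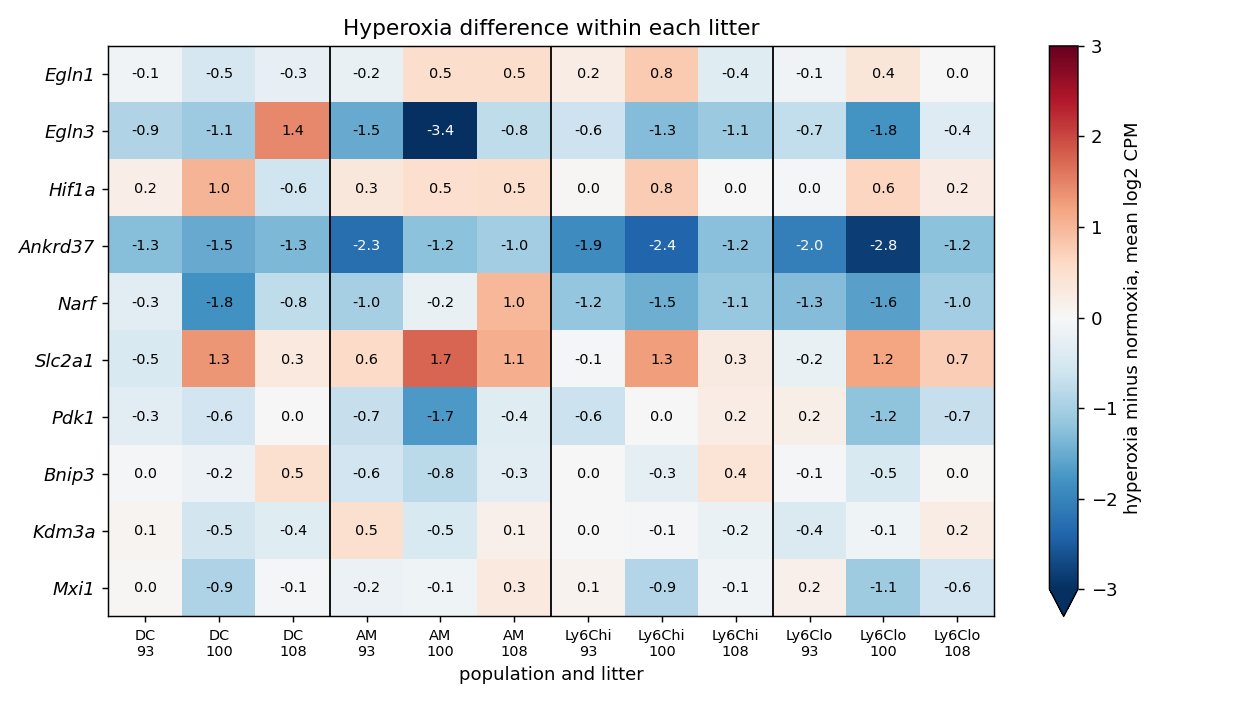
Hyperoxia minus normoxia in mean log2 CPM for each member (down) in each population and litter (across), with the value printed and a colour scale that ends at −3. The Ankrd37 row is negative in all 12 cells, and the Slc2a1 row is highest in litter 100 of each population.

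As the mean over the 4 populations, the log2 fold change was −2.25 ± 0.34 for Ankrd37, −0.84 ± 0.16 for Narf and 0.57 ± 0.14 for Slc2a1. Pdk1 had −0.37 ± 0.13, Hif1a 0.24 ± 0.09, and Mxi1, Kdm3a, Bnip3 and Egln1 lay between −0.19 and 0.06. The Ankrd37 mean takes in AM and Ly6Clo, where many libraries hold no count, and it was −1.62 over DC and Ly6Chi alone. By edgeR's quasi-likelihood test with Benjamini-Hochberg adjustment over all genes, 3 of the 9 members that passed the filter were called at an adjusted p under 0.05. They were Ankrd37 and Narf as lower and Slc2a1 as higher, beside 3.02% of the 12529 genes tested (2.34% higher and 0.678% lower). The median over the 9 members was −0.12 and that over all genes −0.04. Within single populations 0 members were called, beside 0% of genes in DC, 0.11% in AM, 0% in Ly6Chi and 0% in Ly6Clo. At an unadjusted p under 0.05 there were 2 members in DC beside 8.85% of genes, 3 in AM beside 9.91%, 2 in Ly6Chi beside 5.45% and 1 in Ly6Clo beside 5.3%. DESeq2 called 0, 1, 2 and 0 members in the same order, and limma voom called 0 in each. Over all genes DESeq2 called 24 of 11274 in DC, 111 of 9986 in AM, 5 of 10844 in Ly6Chi and 1 of 10188 in Ly6Clo. Because this contrast chose the genes, these counts describe it and carry no further reading. Without litter 100 only the Ankrd37 call held, at a log2 fold change of −2.22, while Narf had −0.69 and Slc2a1 0.30. The Slc2a1 call also ended without the DC hyperoxic library of litter 100 (replicate 3) alone, at 0.51.

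Transcripts that mark cell types also differed between the oxygen conditions, with 0 markers called by edgeR within any population. For the mean over the populations edgeR called 1 of 5 endothelial, 1 of 7 neutrophil and 1 of 6 classical monocyte markers. In that fit 3.02% of all genes were called. In Ly6Chi 5 of 5 endothelial markers had a negative log2 fold change (median −1.27), and their summed level ranged from 9.02 to 281.3 CPM in hyperoxic libraries and from 140.4 to 462.1 CPM in normoxic ones. In DC 3 of the 4 endothelial markers tested were negative, with sums of 29.4 to 124.3 CPM in hyperoxia and 59.7 to 175.3 CPM in normoxia. In AM and in Ly6Clo 4 of 4 were negative. The sums in AM were 51.4 to 369.3 CPM in hyperoxia and 95.2 to 574.9 CPM in normoxia. The 574.9 CPM was in AM normoxia replicate 4, which held 22 of the 41 normoxic Ankrd37 counts in AM. AM normoxia replicate 3 had 318.2 CPM of these markers and 1.69 CPM of Ankrd37. Epithelial markers were negative for 7 of 7 in DC and AM, 5 of 7 in Ly6Chi and 3 of 4 tested in Ly6Clo. Their sums were 53.6 to 2015 CPM in hyperoxic and 255.3 to 2681 CPM in normoxic AM libraries, and 22.5 to 1900 CPM in hyperoxic and 75.3 to 2099 CPM in normoxic Ly6Chi libraries. Some other lists were mostly positive in single populations. Neutrophil markers were positive for 7 of 7 in DC (median 0.43), with sums of 168.4 to 652.2 CPM in hyperoxia and 82.5 to 1137 CPM in normoxia. Interstitial macrophage markers were positive for 7 of 7 in DC (median 0.31) and 6 of 6 tested in AM (median 0.76), where the sums were 985.6 to 1778 CPM in hyperoxia and 1015 to 1464 CPM in normoxia. Classical monocyte markers were positive for 5 of 5 tested in AM (median 0.84), with sums of 150.5 to 459.5 CPM in hyperoxia and 107.2 to 206.7 CPM in normoxia. T and B cell markers were positive for 4 of 4 tested in Ly6Chi (median 0.99), with sums of 303.2 to 519.0 CPM in hyperoxia and 220.7 to 341.0 CPM in normoxia. In Ly6Clo they were negative for 3 of 3 tested (median −1.29), as were 6 of 6 non-classical monocyte markers (median −0.80) and 7 of 7 interstitial macrophage markers (median −0.24). The non-classical sums there were 363.2 to 738.8 CPM in hyperoxia and 683.4 to 1485 CPM in normoxia. Ly6Clo cells were sorted as monocytes/macrophages, so the non-classical and interstitial macrophage lists may mark the sorted cells themselves there. Of the DC markers 6 of 8 were negative in DC itself (median −0.41) and 2 were positive. Their sums were 2050 to 2950 CPM in hyperoxic DC and 2354 to 3257 CPM in normoxic DC. None of the markers in these lists was at 0 throughout a group. The part of these transcripts in the differences of the members was not tested.

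The wider pathway was described with 68 other genes, of which 50 to 58 passed the filter in each hyperoxia fit. These genes were also chosen with earlier results of these data known, so their hyperoxia calls and p-values are a description. By edgeR 0 were called in any single population, as by DESeq2 and limma voom, and at an unadjusted p under 0.05 there were 4 of 55 in DC beside 8.85% of all genes, 3 of 51 in AM beside 9.91%, 3 of 54 in Ly6Chi beside 5.45% and 2 of 50 in Ly6Clo beside 5.3%. Their shares below 0 were 47.3% in DC, 41.2% in AM, 55.6% in Ly6Chi and 52.0% in Ly6Clo, beside 49.9%, 51.2%, 52.4% and 52.1% of all genes. The median log2 fold changes were 0.00, 0.11, −0.05 and −0.01 in the same order. The 2 genes of smallest p in each population were not called. In DC they were Bhlhe40, a transcriptional repressor (−0.43 ± 0.14), and Slc16a3, the lactate exporter MCT4 (−0.87 ± 0.37). In AM they were Pkm, pyruvate kinase (0.35 ± 0.13), and Selenbp1, a selenium-binding protein (−1.41 ± 0.54). In Ly6Chi they were Pygl, a glycogen phosphorylase (−0.36 ± 0.13), and P4ha1, a subunit of collagen prolyl hydroxylase (−0.60 ± 0.25). In Ly6Clo they were Ccng2, cyclin G2 (−0.85 ± 0.24), and Insig2, a brake on sterol synthesis (−0.48 ± 0.22).

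Over the mean of the 4 populations 1 of 58 of these genes was called, beside 3.02% of all genes. It was Rbx1, the RING subunit of the VHL ubiquitin ligase, which was higher in hyperoxia (0.24 ± 0.07, edgeR adjusted p = 0.0351). The adjusted p of Rbx1 was 0.0755 without Ly6Chi hyperoxia replicate 3, 0.0783 without Ly6Clo hyperoxia replicate 3, 0.375 without litter 100 and 0.125 without litter 93. The call was also lost with no litter term (0.301), without libraries under 1000000 counts (0.310), with no filter (0.0740), with limma voom (0.0553) and over DC and Ly6Chi alone (0.334). By role, 4 of 9 regulators, 9 of 21 genes of glycolysis and glucose and 13 of 28 other targets had positive values. At an unadjusted p under 0.05 edgeR held 12 of the 58, 7 higher and 5 lower, beside 17.4% of all genes. DESeq2 called 4 of the 58 beside 703 of all 12529 genes, and limma voom called 0 beside 221. The 4 were Rbx1, Hk2 (hexokinase 2), Aldoa (aldolase A) and Plin2 (a lipid droplet coat protein), all higher, and the last 3 are named here after their values were seen.

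**Figure D4:**
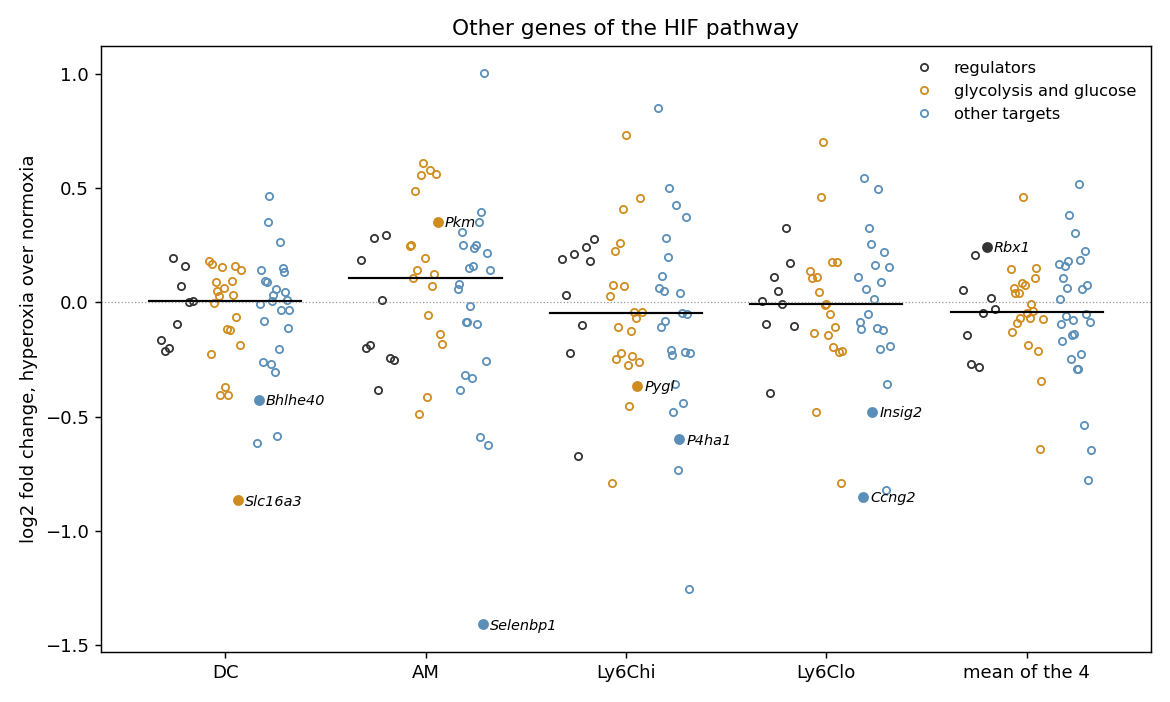
Log2 fold change of hyperoxia over normoxia for the other HIF pathway genes that passed the filter, by population and for the mean of the 4, with regulators, glycolysis genes and other targets side by side and 1 bar per column at the median of all 3 parts together. Filled points carry the names of the genes described in the text, and these medians lie between −0.05 and 0.11.

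The members were not chosen on differences between populations, and these were tested in the 23 normoxic libraries. The same libraries are the normoxic side of the hyperoxia contrast that chose the members, so these tests are not free of that choice. Across genes, levels are set side by side per kilobase of exon. Hif1a had the highest mean in DC (23.02 CPM per kb), AM (26.2) and Ly6Clo (26.2), and Narf in Ly6Chi, at 20.4 CPM per kb against 17.1 for Hif1a. Egln3 was lowest in all 4, at 0.22 to 1.60 CPM per kb, and the remaining means lay between 3.05 and 19.4 CPM per kb. Of the 9 members tested, 6 differed between populations by edgeR's quasi-likelihood F test (Ankrd37, Narf, Slc2a1, Pdk1, Hif1a and Mxi1), beside 62.4% of 11979 genes. Egln1, Bnip3 and Kdm3a did not pass, at adjusted p = 0.578, 0.436 and 0.751. That share is near the background and is no result about these genes as a set. DESeq2 also called 6, beside 7854 of 11979 genes, and limma voom 6, beside 8025. By pair of populations, 4 of the 9 members were called between DC and AM (49.9% of genes), 4 between DC and Ly6Chi (28.7%) and 1 between DC and Ly6Clo (24.4%). There were 5 between AM and Ly6Chi (52.2%), 3 between AM and Ly6Clo (21.5%) and 5 between Ly6Chi and Ly6Clo (30.7%). Several calls were lost in some of the 23 fits that left out 1 library. Mxi1 between Ly6Chi and Ly6Clo was lost in 19, and Slc2a1 between AM and Ly6Chi in 11. Narf and Hif1a between DC and Ly6Chi were each lost in 8, and Pdk1 between AM and Ly6Clo in 5. Ankrd37 was lost in 4 between DC and AM and in 1 between Ly6Chi and Ly6Clo, and Mxi1 in 1 between DC and Ly6Clo. Calls were also lost when a whole litter was left out. Ankrd37 between Ly6Chi and Ly6Clo was lost without any 1 litter (edgeR adjusted p 0.0503 to 0.0981). Between DC and AM it was lost without litter 93 (0.115) or 108 (0.177). Mxi1 between DC and Ly6Clo was lost without litter 100 (0.151) or 108 (0.0715). Between Ly6Chi and Ly6Clo, Narf was lost without litter 93 (0.109) or 108 (0.107), and Hif1a without litter 93 (0.0605).

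Ankrd37 and Narf had the same order in normoxia, with Ly6Chi highest, then DC, then Ly6Clo, and AM lowest. Ankrd37 averaged 25.9 ± 6.56 CPM in Ly6Chi, 11.5 ± 2.53 in DC, 10.7 ± 6.65 in Ly6Clo and 4.70 ± 5.51 in AM (F test adjusted p = 0.000521). No neighbours in that order differed past the threshold, and AM minus Ly6Chi was −2.44 ± 0.48 on the log2 scale (adjusted p = 0.000121). Ankrd37 passed the filter of this fit through the populations where it was higher, and it failed the filter in the AM and Ly6Clo fits. Of its 41 normoxic AM counts 22 came from replicate 4, so its AM values here are a description. Narf averaged 98.2 ± 32.9 CPM in Ly6Chi, 61.2 ± 14.9 in DC, 50.1 ± 10.6 in Ly6Clo and 22.7 ± 9.70 in AM (adjusted p = 2.3e-06). AM minus Ly6Clo was −1.19 ± 0.27 (adjusted p = 0.00271), and DC did not differ from Ly6Clo past the threshold. DC minus Ly6Chi passed at −0.64 ± 0.23 (adjusted p = 0.0392), but it was lost when any of 8 single libraries was left out, with an adjusted p of up to 0.0969. Those were DC replicates 1, 2, 3 and 5 and Ly6Chi replicates 2, 4, 5 and 6.

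Pdk1 ran the other way. It averaged 80.2 ± 13.9 CPM in AM, 53.8 ± 7.43 in Ly6Clo, 47.1 ± 7.02 in DC and 29.4 ± 10.2 in Ly6Chi (F test adjusted p = 4.0e-06). AM was above Ly6Chi by 1.46 ± 0.19 and DC above Ly6Chi by 0.71 ± 0.19, both past the threshold with any single library left out. The DC step was lost without litter 100 (adjusted p = 0.0630) or litter 108 (0.165). Ly6Clo and DC did not differ past the threshold, and the step between AM and Ly6Clo (0.59 ± 0.20, adjusted p = 0.0323) was lost without AM replicate 1 or 4 or without Ly6Clo replicate 1, 2 or 3 (adjusted p up to 0.0886). Hif1a was lowest in Ly6Chi, at 100.8 ± 21.5 CPM, against 135.7 ± 25.3 in DC, 154.2 ± 25.9 in AM and 154.5 ± 35.5 in Ly6Clo (adjusted p = 0.00826, or 0.0600 without litter 93). Mxi1 was lowest in DC, at 67.9 ± 9.53 CPM, with log2 differences of −0.90 ± 0.15 for DC minus AM and −0.94 ± 0.15 for DC minus Ly6Chi (adjusted p = 2.5e-05 and 2.2e-05). Slc2a1 was lowest in AM, at 32.3 ± 10.2 CPM, against 54.4 ± 5.66 in Ly6Clo (log2 difference −0.82 ± 0.23, adjusted p = 0.0124). Its F test (adjusted p = 0.0212) did not pass without AM replicate 2 (0.0539), AM replicate 4 (0.0527) or Ly6Clo replicate 3 (0.0537), nor without litter 93 (0.224) or litter 108 (0.0636). Without litter 93 the step between AM and Ly6Clo was lost too (adjusted p = 0.141). AM, where Slc2a1 was lowest in normoxia, also gave its largest hyperoxia log2 fold change, 1.07 ± 0.27. The same normoxic AM libraries enter both values, so these are not separate observations. The hyperoxia effect was not shown to differ between populations.

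**Figure D5:**
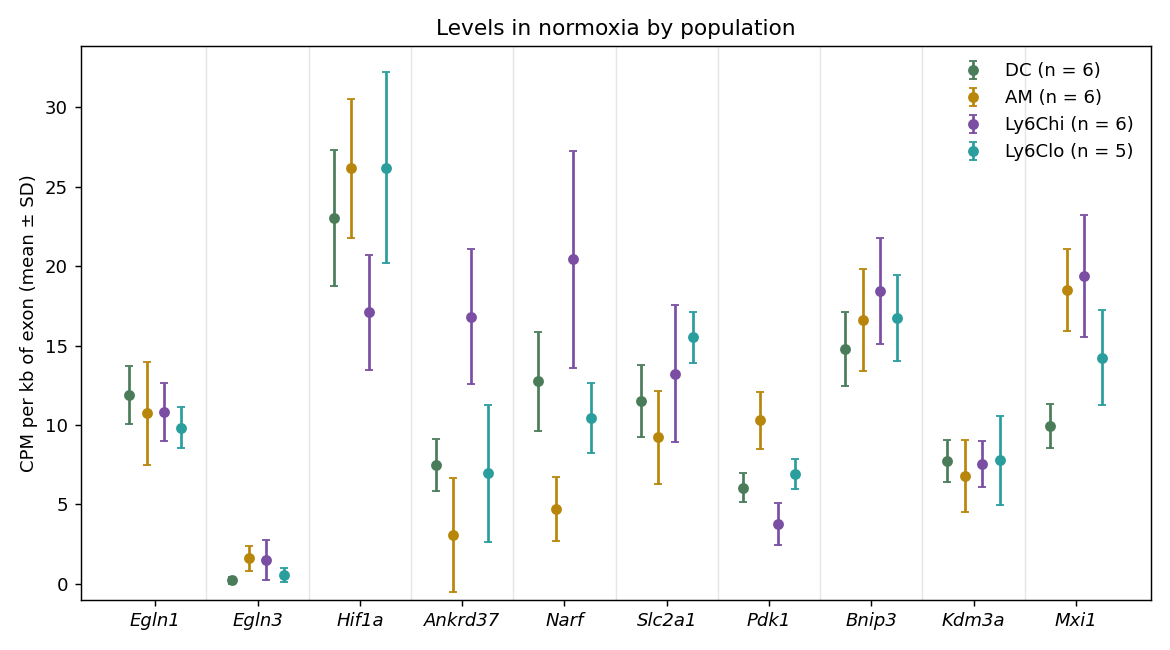
Level of each member in normoxia as CPM per kilobase of exon (mean ± SD, n = 6, or 5 for Ly6Clo) in the 4 populations. Ankrd37 and Narf are highest in Ly6Chi and lowest in AM, whereas Pdk1 is highest in AM and lowest in Ly6Chi.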

How the data were processed

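RNA of sorted cells was amplified with SMART-Seq v4 and made into libraries with Nextera XT, per the labels' protocols. This kit does not mark strand, and no molecular identifiers are described, so intervals cover counting error only. The deposited values are counts of reads per Ensembl gene, made by the authors. The submitters' processing notes name TopHat, HTSeq 0.4.1, FastQC, Picard, SAMtools and build NCBIM37. Their roles, and the annotation, are not given in the sources used here. Of 37991 identifiers, 32919 matched a symbol in GENCODE M21. That annotation gave names, strands and exon lengths, and RefSeq tables gave promoter sequences.

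Genes were kept by filterByExpr (minimum count 10, minimum total 15). Counts were scaled by trimmed mean of M values and fitted with edgeR 4.0.16 in R 4.3.3 (robust quasi-likelihood test, litter as an added term), within each population, over all 43 libraries and over the 23 normoxic libraries. Benjamini-Hochberg adjustment covered all genes tested, and calls were made at adjusted p under 0.05. Log2 CPM used a prior count of 1. Alternatives used DESeq2 1.42.0, limma 3.58.1 (voom), RLE size factors, no filter, no litter term, and fits without libraries or litters. The fits were also run on simulated counts with a fixed spread, no litter effect and changes only in genes of higher counts. That run does not cover litter effects or members with few counts. Figures were drawn with matplotlib 3.10.9. Ratios of summed counts carry exact 95% binomial intervals.

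The members and the gene lists were chosen with earlier results of these data known. Beyond the members, the text names by rule pathway genes called by edgeR in the hyperoxia fits described above, the 2 of smallest p in each population, and the 5 genes most correlated with Ankrd37. The mean over DC and Ly6Chi alone, and the ratios of summed counts without single libraries, were added after seeing the data.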

Additional observations from a re-analysis of the deposited data

Results flagged for a closer look

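Each of the 80 gene and group sets was examined for a library that stood apart from the rest of its group. This happened in 7 of them, and chance flags about 1 in 20 such groups. In Ly6Clo hyperoxia, Narf had 42.0 CPM in replicate 5 (litter 108), against 15.6 to 20.6 CPM in the other 4 libraries. Bnip3 had 57.7 CPM in Ly6Clo hyperoxia replicate 4, against 28.8 to 36.0 CPM in the others. Mxi1 had 51.2 CPM in Ly6Clo hyperoxia replicate 3, against 76.8 to 83.9 CPM. In Ly6Chi hyperoxia replicate 3, Hif1a had 169.8 CPM, against 94.7 to 102.9 CPM in the others. In the same library Egln3 had 0 CPM, against 1.93 to 2.72 CPM. Both this library and the Mxi1 one belong to litter 100. Pdk1 had 62.1 CPM in DC hyperoxia replicate 4, against 29.5 to 37.6 CPM. In Ly6Chi normoxia replicate 6, Egln3 had 10.1 CPM, against 0 to 3.78 CPM in the other 5 libraries.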

How the results depend on the processing

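No result reversed its sign past a threshold under the alternatives run. Of the members, DESeq2 called 1 in AM and 2 in Ly6Chi, beside 111 of 9986 genes in AM and 5 of 10844 in Ly6Chi. With no filter on low counts 2 members were called in DC, 1 in AM, 2 in Ly6Chi and 1 in Ly6Clo. The genes called beside them were 369 of 21297 in DC, 325 of 19708 in AM, 235 of 20482 in Ly6Chi and 173 of 20149 in Ly6Clo. With the filter edgeR called 0 members in each. For the mean over the populations 3 members were called, 1 without litter 100, and 2 to 3 when single libraries were left out. Of the other pathway genes 1 was called for that mean. The count was 4 with DESeq2, 2 with RLE size factors, 0 with limma voom, 0 over DC and Ly6Chi only, 6 with no filter and 0 with no litter term. It was 0 without libraries under 1000000 counts, 0 without litter 100, 4 without litter 108, 2 without litter 93, and 0 to 3 when single libraries were left out. Rbx1 was among the 4 of DESeq2, the 2 of RLE and the 4 without litter 108, and not among those without litter 93 or with no filter. With no filter the interaction called 3 of these genes, Adm, Bhlhe40 and P4ha2, named after their values were seen. The causes were not tested. Over all genes the mean effect was called for 378 genes by edgeR, 703 by DESeq2 and 221 by limma voom. In AM edgeR called 11 genes, DESeq2 111 and limma voom 12. In DC edgeR called 0, DESeq2 24 and limma voom 1, in Ly6Chi 0, 5 and 0, and in Ly6Clo 0, 1 and 0 by the same tools. For the interaction edgeR called 0 genes, DESeq2 21 and limma voom 4. With no filter edgeR called 1033 genes for the mean effect, 524 for the interaction, 369 in DC, 325 in AM, 235 in Ly6Chi and 173 in Ly6Clo. From the fit of all 43 libraries it called 27 in AM, 1 in Ly6Chi and 3 in Ly6Clo. No paired analysis was possible because replicate numbers only follow the order of deposit, so litter was the block. Depth limits Ankrd37 in AM and in hyperoxic Ly6Clo, and Egln3 in all groups.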

Other observations

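Across the 43 libraries, after the mean of each population was taken away, the genes whose log2 CPM ran most like that of Ankrd37 among 12528 genes were A430035B10Rik (Pearson r = 0.742), Slc12a2 (0.694), Smc6 (0.659), the identifier ENSMUSG00000078667 (0.656) and Cep85l (0.643). These values describe libraries that share depth, litter and oxygen condition. Among the 36 pairs of members the median r was 0.097, and 16 pairs were negative. Narf and Mxi1 had the highest value, 0.606, and Pdk1 and Slc2a1 the lowest, −0.612. Pdk1 also had −0.447 with Hif1a, and Ankrd37 had −0.428 with Slc2a1. Both oxygen conditions enter these values, so they include the hyperoxia differences given above.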
